A study of Mus musculus with 8 samples.

Results

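The homeobox regulators outside the Hox clusters described here are the protein-coding genes of the mm9 annotation of the Pax, Lhx, Nkx, Irx, Dlx and Pou families and the sine oculis family, which includes Six4 and Six6, chosen by a symbol made of the family name and a digit, without Pou5f1. The rule, which uses symbols and no measured value, found 63 of 22367 protein-coding genes: 9 Pax, 8 Lhx, 14 Nkx, 6 Irx, 6 Dlx and 14 Pou genes and 6 genes of the sine oculis family, on 19 chromosomes. The label fits all but a few of them. Pou2af1 matches by symbol but encodes a B-cell coactivator of POU proteins with no homeodomain, and Pax1 and Pax9 have the paired domain but no homeodomain. Whether the homeodomain of each of the other members is complete was not checked by sequence.

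5-Hydroxymethylcytosine (5hmC) was mapped by GLIB-Seq in 6 libraries, 1 per group. The ESC library came from E14 mouse embryonic stem cells (ESCs), the MEF library from C57BL/6 embryonic fibroblasts, and the brain and liver libraries from C57BL/6 mice aged 8 weeks. The age of the fibroblasts is embryonic day 11 in the labels and a later embryonic day in the methods. The shGFP and shSuz12 libraries came from E14 cells carrying a transfected hairpin (short hairpin RNA) directed at GFP, the control, or at Suz12, a subunit of Polycomb repressive complex 2 (PRC2), and selected with puromycin. The methods name a pair of Suz12 hairpin vectors without saying which was used for sequencing, and the peak lists hold no expression values, so neither the knockdown nor the identity of the tissues was checked here. Nothing in the labels gives the number of animals or cultures behind a library, and differences between libraries therefore have no replicate error and no test.

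Each list gives the position and score of peaks called within its own library. The 6 lists held 130408 to 217025 peaks that covered 83.5 to 208 Mb, and their lowest scores differed: 80 in ESC and liver, 30 in MEF and brain, 50.02 in shGFP and 30.34 in shSuz12. Read depth is not part of such a list and is unknown. The counts over the 63 genes are read against the same counts over all protein-coding genes, which pass through the same lists, and the 95% intervals are exact (Clopper-Pearson) and cover counting error only.

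In 5hmC, a methylated cytosine has been oxidised by a Tet enzyme, and the mark is usually found where both a Tet enzyme and methylated CpG sites are present. Homeobox proteins are transcription factors that set cell identity in the embryo: Pax, Lhx and Nkx genes pattern neural tube, forebrain, foregut and heart, sine oculis genes the eye, muscle and kidney, Irx genes heart and neural fields, Dlx genes the limb, jaw and forebrain, and Pou genes neurons, pituitary and lymphocytes. In ESCs most such genes are silent, and many carry both H3K27me3, the histone mark of PRC2, and H3K4me3, a state called bivalent.

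The promoter, taken as 1 kb on each side of the transcription start site (TSS), differed in 5hmC between genes of the same family, and 4 stretches of DNA illustrate the comparison of shGFP with shSuz12. Each is the central 200 bp of a shGFP promoter peak, from the mm9 assembly, written in the direction of transcription with CpG dinucleotides, the sites at which 5hmC is mainly found, in capitals. Nkx2-3 and Irx4 are shown because their promoter peaks had no counterpart in shSuz12, and Pou2f2 and Six6 because theirs did and the promoter bp under peaks were higher in shSuz12. The Nkx2-3 stretch (chr19:43686202-43686401, plus strand) lies upstream of the gene at -613 to -414 bp from the TSS. The Irx4 stretch (chr13:73398685-73398884, plus strand) is in an intron at 740 to 939 bp. The Pou2f2 stretch (chr7:25916652-25916851, minus strand) is intronic at 656 to 855 bp, and the Six6 stretch (chr12:74042431-74042630, plus strand) spans the end of an intron and the start of a coding exon at 1499 to 1698 bp, inside a peak that begins within the promoter.
Nkx2-3: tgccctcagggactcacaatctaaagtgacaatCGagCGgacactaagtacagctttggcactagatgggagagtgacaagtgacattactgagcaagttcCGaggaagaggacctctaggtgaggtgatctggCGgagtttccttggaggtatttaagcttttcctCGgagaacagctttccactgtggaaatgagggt
Irx4: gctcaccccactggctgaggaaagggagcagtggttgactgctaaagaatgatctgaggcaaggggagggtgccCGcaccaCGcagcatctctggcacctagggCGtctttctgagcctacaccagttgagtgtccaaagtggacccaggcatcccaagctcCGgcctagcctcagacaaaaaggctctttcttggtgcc
Pou2f2: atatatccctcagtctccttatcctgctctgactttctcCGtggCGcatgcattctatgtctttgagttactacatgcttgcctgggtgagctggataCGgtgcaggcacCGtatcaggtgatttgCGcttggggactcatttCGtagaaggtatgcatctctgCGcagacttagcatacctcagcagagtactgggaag
Six6: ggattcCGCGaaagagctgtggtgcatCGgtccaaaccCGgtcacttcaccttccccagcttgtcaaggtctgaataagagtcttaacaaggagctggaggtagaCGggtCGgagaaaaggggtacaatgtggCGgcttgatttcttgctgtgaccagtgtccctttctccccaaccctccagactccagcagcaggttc

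The stretches hold 5, 4, 7 and 7 CpGs in Nkx2-3, Irx4, Pou2f2 and Six6, and their GC content is 49, 58, 50 and 54.5%. The whole peaks they come from are 689, 812, 677 and 1750 bp wide, hold 24, 31, 23 and 51 CpGs, and had scores of 70.58, 105.27, 71.78 and 328.54. The Nkx2-3 peak met a peak of neither ESC nor shSuz12. The Irx4 peak met an ESC peak only, and the Pou2f2 and Six6 peaks met peaks of both.

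Promoters were classed by CpG content as high (HCP), intermediate (ICP) or low (LCP), and 23 of the 63 genes (36.5%) were HCP, 31 ICP and 9 LCP, against 34.2% HCP over all protein-coding genes. The Irx family stood at 5 HCP of 6 and the Pax family at 1 of 9. The genes were also short, with a median span of 5808 bp and a range from 1182 to 257079 bp, against a median of 15427 bp over all genes, and 40 of them were no longer than 10 kb.

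Of the 63 TSSs, 11.1% lay under a peak in shGFP, 9.52% in ESC and 4.76% in shSuz12, near the 11.2, 11.8 and 5.83% of all genes, and coverage increased away from the TSS. No TSS of the 23 HCP genes lay under a peak in any library, where at most 3.07% of all HCP TSSs did, so that this 0 does not set them apart. In shGFP the mean share of the genes under a peak was 11.4% within 500 bp of the TSS, 19.3% at 500 to 1000 bp, 21.6% at 1 to 2 kb, 29.5% at 2 to 3 kb and 27.0% at 3 to 5 kb, both sides together. Over all protein-coding genes the same bands of shGFP were level, at 11.3, 10.7, 9.87, 9.08 and 9.27%. ESC had 11.3% within 500 bp and 20.5% at 2 to 3 kb, with 12.3 and 14.2% over all genes, and shSuz12 had 5.18 and 14.3%, with 5.82 and 6.09%. The homeobox genes were thus near the background within 500 bp of the TSS in the libraries of ESCs. They exceeded it from 500 bp outward in shGFP and from 2 kb outward in ESC. In shSuz12 they had 7.46 against 6.05% at 500 to 1000 bp and 12.1 against 6.41% at 1 to 2 kb. In MEF, brain and liver no band exceeded 7.18%, the value of brain within 500 bp. Relative to the mean share at 1 to 2 kb, the TSS stood at 0.780 times in ESC, 0.509 times in shGFP and 0.387 times in shSuz12, and at 1.71 and 2.84 times in MEF and brain, which rest on 2 and 5 TSSs. Over all genes the TSS had 11.8, 11.2 and 5.83% in ESC, shGFP and shSuz12, against 14.7, 9.87 and 6.41% at 1 to 2 kb. In MEF and brain it had 6.87 and 4.46%, against 12.4 and 10.9%. A TSS below its flanks in ESC and shSuz12 was thus also seen over all genes. The shSuz12 ratio, which rests on 3 TSSs, turned to 1.58 with scores of at least 80.

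**Figure D1:**
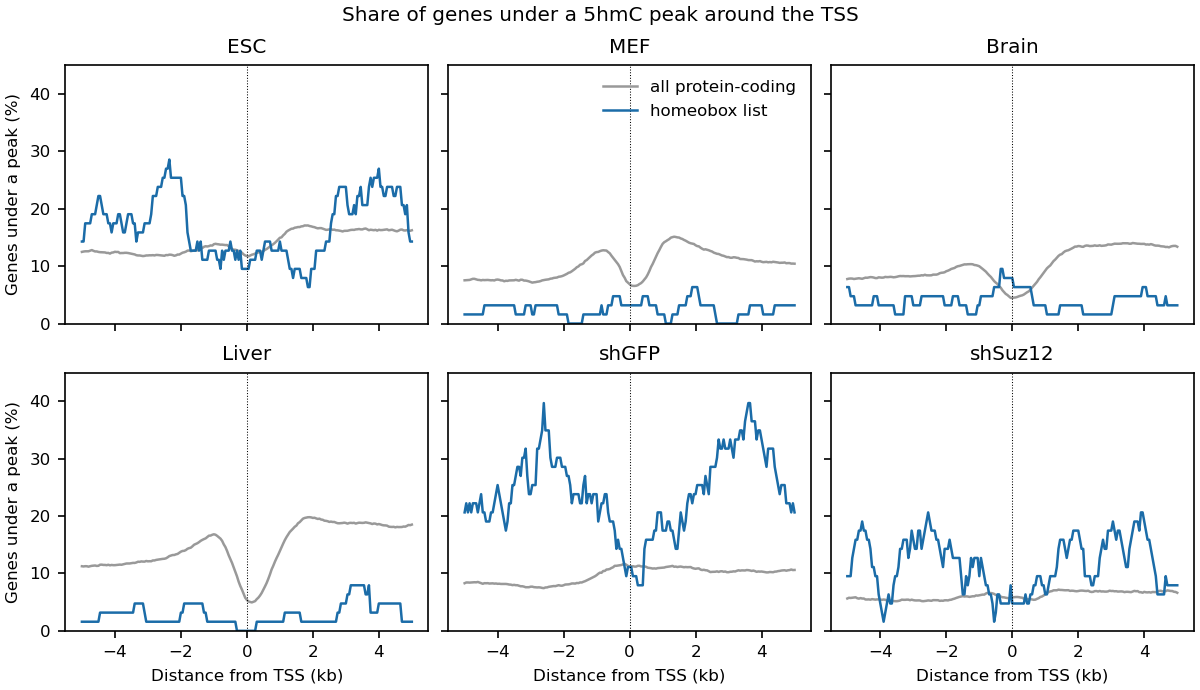
Percentage of genes under a 5hmC peak (vertical axis) at each distance from the TSS in kb (horizontal axis, negative values upstream), for the 63 homeobox regulators in blue and all 22367 protein-coding genes in grey, with 1 panel per library. The blue line rises on both sides of the TSS in ESC, shGFP and shSuz12, to 39.7% in shGFP, and stays under 10% in MEF, brain and liver, where the grey line reaches 14.0 to 19.8%.

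To ask in which cell types these genes carry 5hmC at the promoter, promoters with at least 1 bp under a peak were counted. In ESC 17 of 63 promoters (27.0%, interval 16.6 to 39.7%) had a peak, against 31.9% of all protein-coding promoters. In MEF 5 had a peak (7.94%, 2.63 to 17.6%), against 30.1%. In brain 7 had a peak (11.1%, 4.59 to 21.6%), against 20%. In liver 2 had a peak (3.17%, 0.387 to 11.0%), against 29.4%. The ESC and brain shares were within counting error of the background, and those of MEF and liver were below it.

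The transfected ESCs had 25 promoters with a peak in shGFP (39.7%, 27.6 to 52.8%), against 27.1% of all promoters, and 13 in shSuz12 (20.6%, 11.5 to 32.7%), against 21.4%. The shSuz12 share was near the background with the whole lists, but with scores of at least 80 it was 11.1%, against 5.07% of all promoters. The interval of the shGFP share began just above it. With 2 kb on each side of the TSS in place of 1 kb, shares of 44.4% in ESC, 61.9% in shGFP and 46.0% in shSuz12 were found beside 44.9, 37.5 and 33.9% of all genes, and MEF, brain and liver stayed at 9.52, 15.9 and 4.76% beside 42.1, 32.3 and 41.4%. Of the 23 HCP promoters only Irx4 and Irx1, Lhx5, Pax9 and Nkx6-2 had a peak in any library: 2 in ESC, none in MEF, brain and liver, 5 in shGFP and 1 in shSuz12, while 27.1, 34.6, 19.7, 40.5, 22.3 and 17.1% of all HCP promoters had one.

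**Figure D2:**
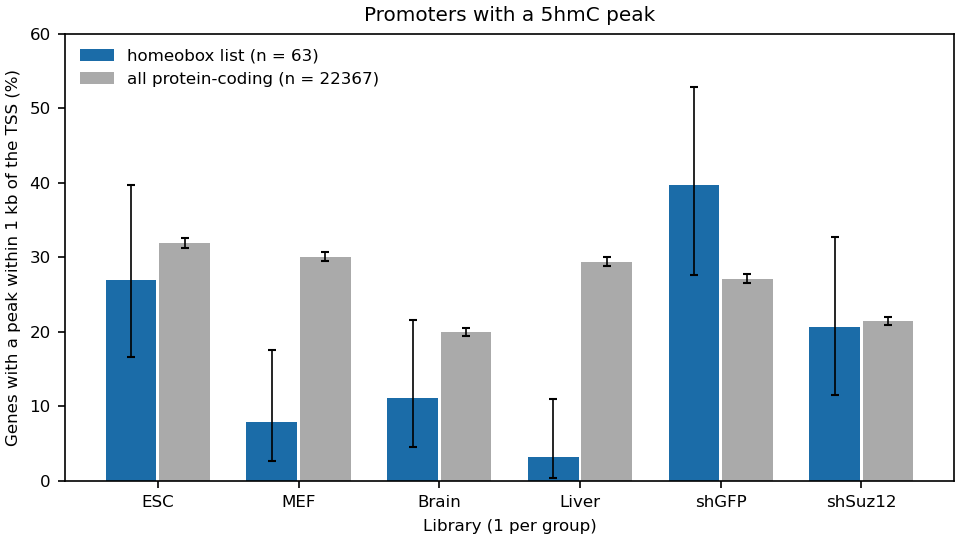
Percentage of promoters with a 5hmC peak within 1 kb of the TSS (vertical axis) in each library (horizontal axis), for the 63 homeobox regulators in blue and all 22367 protein-coding genes in grey. Error bars are exact 95% intervals of the share and cover counting error only. The blue bar is far below the grey in MEF (7.94 against 30.1%) and liver (3.17 against 29.4%) and above it in shGFP (39.7 against 27.1%).

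Over gene spans, from the annotated start to the end of the gene, 39 genes had a peak in ESC, 23 in MEF, 22 in brain, 16 in liver, 47 in shGFP and 42 in shSuz12. These are 61.9, 36.5, 34.9, 25.4, 74.6 and 66.7%, beside 67.8, 61, 60.7, 57.9, 63.4 and 63% of all protein-coding genes. The median percentage of the span under peaks was 9.64 in ESC (quartiles 0 and 22.4), 19.2 in shGFP (0.392 and 32.3) and 6.49 in shSuz12 (0 and 18.1), and 0 in MEF, brain and liver. Over all genes the medians were 8.77, 4.17 and 3.05 in ESC, shGFP and shSuz12, and 4.43, 6.43 and 4.44 in MEF, brain and liver.

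Because a short gene has less room for a peak, the genes were also split at 10 kb. Of the 40 shorter ones, 42.5% had a span peak in ESC, 7.50% in MEF, 12.5% in brain, 10% in liver, 62.5% in shGFP and 52.5% in shSuz12, against 44.2, 32.2, 32.7, 35.4, 38.2 and 35.1% of all genes of that length. The 23 longer ones had 95.7, 87.0, 73.9, 52.2, 95.7 and 91.3%, against 83.2, 80, 79.0, 72.7, 79.9 and 81.3%. The shortage of peaks in MEF and brain was therefore seen mainly among the short genes, and that in liver in both length classes. The percentage of length covered in the longer ones was nevertheless lower than the background in MEF (7.88 against 11.9%), brain (7.61 against 13.9%) and liver (2.71 against 12.6%) and higher in ESC (16.1 against 11.3%) and shGFP (12.4 against 7.23%).

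**Figure D3:**
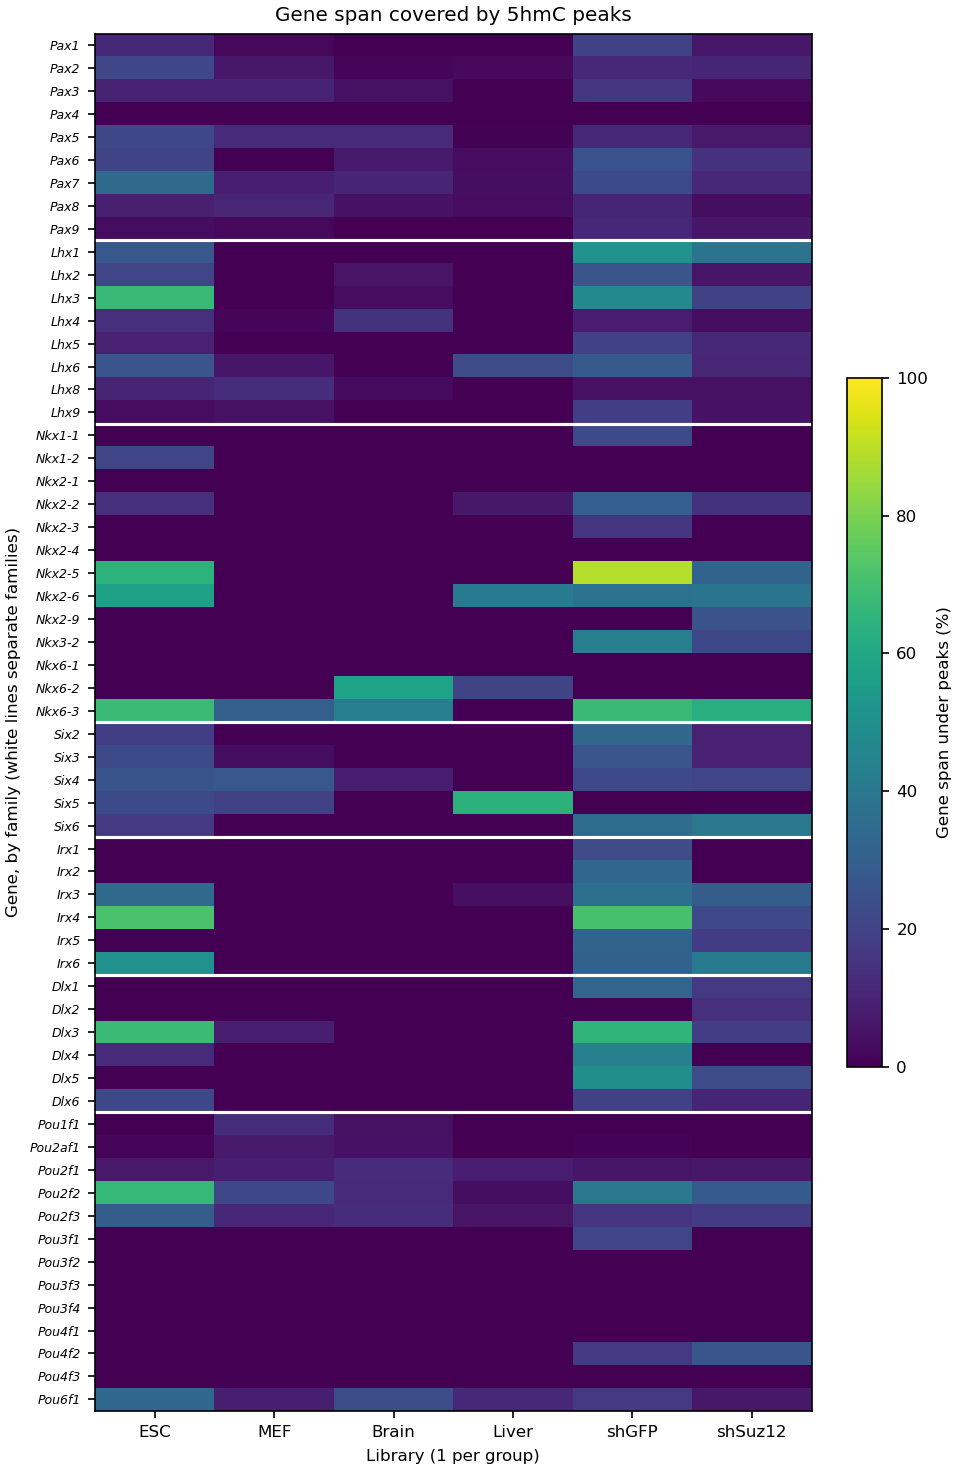
Percentage of the gene span under 5hmC peaks (colour, 0 to 100%) for 60 of the 63 genes (rows, grouped by family with white lines between families) in each of the 6 libraries (columns, 1 library per group). Bright cells cluster in ESC, shGFP and shSuz12, up to 88.9% for Nkx2-5 in shGFP, and the MEF, brain and liver columns are dark except for single genes such as Nkx6-2 in brain (57.9%) and Six5 in liver (64.2%).

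For 7 genes (11.1%, against 20.0% of all genes) no peak touched the span or the promoter in any library. They are Nkx2-4, Nkx6-1, a regulator of pancreatic beta cells and motor neurons, the neural genes Pou3f2, Pou3f3 and Pou3f4, and the sensory neuron genes Pou4f1 and Pou4f3. At the other end, 9 genes (14.3%) had a span peak in all 6 libraries, against 38.4% of all genes. In 22 genes (34.9%) span peaks were found in ESC, shGFP or shSuz12 and in no other library, against 5.61% of all genes. These backgrounds were not matched for length, and the 63 genes are shorter, with a median span of 5808 against 15427 bp.

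In the Pax family, whose members are mostly long, 8 of 9 genes had a span peak in each library of ESCs, and 7, 6 and 5 in MEF, brain and liver. Pax8, a regulator of thyroid and kidney (chr2:24276071-24331119, minus strand), had 1341 bp of its promoter under a peak in ESC, 1354 bp in brain and 1383 bp in shGFP, and none in MEF, liver and shSuz12. The covered lengths were thus similar in ESC, brain and shGFP, but the Pax8 promoter peak had a score of 523.23 in ESC and 331.31 in shGFP and of 43.8 in brain, below the lowest score of the ESC list. Pax6, a regulator of eye, pancreas and forebrain, had 31 bp under a promoter peak in ESC, 621 bp in shGFP and 746 bp in shSuz12 and none elsewhere, the largest rise of its family in shSuz12. Its span was covered at 20.3, 0, 7.09, 3.17, 25.2 and 14.4% in ESC, MEF, brain, liver, shGFP and shSuz12. The other Pax promoters ranged from 0 to 1782 bp in shGFP.

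All 8 Lhx genes, LIM-homeodomain factors of neurons and pituitary, had a span peak in ESC, shGFP and shSuz12, but 4 in MEF and brain and 1 in liver. Lhx3, a pituitary and motor neuron factor (chr2:26055732-26063769, minus strand), had 67.2% of its span covered in ESC, 47.2% in shGFP and 19.1% in shSuz12, 3.23% in brain, and nothing in MEF and liver. Its promoter had 1351 bp covered in ESC and 858 bp in brain and none in the other libraries. Lhx6, a factor of cortical interneurons, had 968 bp of promoter covered in shGFP alone, while its span was covered at 26.4% in ESC, 6.23% in MEF, 0% in brain, 23.1% in liver, 28.4% in shGFP and 10.9% in shSuz12. The 79 bp of the Lhx9 promoter in shSuz12 were the family's only promoter bp in that library. Lhx8 had 13.0% of its span covered in MEF against 10.2% in ESC, and Lhx4 14.5% in brain against 13.9% in ESC.

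Of the 14 Nkx genes, 5, 1, 3, 3, 7 and 6 had a span peak in ESC, MEF, brain, liver, shGFP and shSuz12. Nkx6-3 (chr8:24263743-24269420, plus strand) had the whole 2000 bp of its promoter window covered in ESC and shGFP, 1507 bp in MEF, 741 bp in brain, 1306 bp in shSuz12 and none in liver. Its span was covered at 68.2, 30.3, 42.9, 0, 67.8 and 62.7% in the same order of libraries. Nkx2-5, a cardiac regulator, had 64.8% covered in ESC, 88.9% in shGFP and 31.8% in shSuz12 and no peak in MEF, brain and liver. Nkx2-6, a gene of pharyngeal endoderm and embryonic heart, had 57.1% in ESC, 40.7% in liver, 37.7% in shGFP and 38.5% in shSuz12. Nkx2-3, a spleen and gut regulator, had 1240 bp of promoter covered in shGFP and none in the other libraries.

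Nkx6-2, a gene of oligodendrocytes (chr7:146765276-146768696, minus strand), had the reverse arrangement over its span: 57.9% in brain, 20.7% in liver and 0% in the rest. In ESC its promoter nevertheless had 734 bp under a peak, with 787 bp in shGFP and 366 bp in shSuz12, all outside the span.

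All 6 sine oculis genes had a span peak in ESC, and 3, 1 and 1 of them had a span peak in MEF, brain and liver. None of their promoters had a peak in ESC, MEF, brain or liver. Six4 had a promoter coverage of 318 bp in shGFP and of 0 bp in shSuz12, and Six6, a gene of retina and hypothalamus, had 783 bp in shSuz12, more than the 276 bp in shGFP. Over the span Six4 was covered at 25.9% in ESC and 27.3% in MEF, with 7.87, 0, 22.0 and 21.0% in brain, liver, shGFP and shSuz12. Six5, a gene of lens and muscle, was the most covered of the 63 in liver, at 64.2% of its span, beside 22.3% in ESC, 18.9% in MEF and no peak in brain, shGFP and shSuz12.

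The Irx family had no span peak in MEF or brain and 125 bp in liver, all of it in Irx3. In ESC 3 of 6 genes had a span peak, in shGFP 6 and in shSuz12 4. Irx4, a ventricular heart factor (chr13:73397945-73407068, plus strand), had the highest ESC coverage of all 63 genes, at 71.4% of its span, with 70.7% in shGFP and 22.0% in shSuz12. Its promoter had 1092 bp under peaks in ESC, 1142 bp in shGFP and none in shSuz12. For Irx6 the order was different, since peaks covered 528 bp of its promoter in ESC, none in shGFP and then 494 bp in shSuz12.

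Dlx genes had span peaks in 3, 1, 1, 0, 5 and 5 of 6 genes in ESC, MEF, brain, liver, shGFP and shSuz12, of which the brain peak of Dlx4 reached 3 bp into the span. Dlx1, an interneuron factor, had 842 bp of promoter covered in ESC, 1843 bp in shGFP and 649 bp in shSuz12. Dlx3, a factor of skin, tooth and placenta (chr11:94981403-94986610, plus strand), was covered at 68.3% in ESC, 8.29% in MEF, 65.2% in shGFP and 18.4% in shSuz12 and had no peak in brain and liver. Dlx genes lie in pairs, and over the 26.175 kb from Dlx3 to Dlx4, with the DNA between them, peaks covered 46.9% in ESC, 17.8% in MEF, 15.5% in brain, 0% in liver, 42.2% in shGFP and 12.6% in shSuz12. The 18.642 kb of Dlx1 and Dlx2 had no peak in ESC, MEF, brain and liver but 6 peaks in shGFP and 3 in shSuz12, so that the pairs differed from each other in ESC. This stretch begins at the Dlx1 TSS, however, and the ESC peak of the Dlx1 promoter lies just outside it, at 159 bp.

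The Pou family was the exception among the 7 in the number of genes with a peak. Its span peaks numbered 6, 7, 7, 5, 8 and 6 of 14 genes, without a lower count in MEF and brain than in ESC. Its 4 promoters with a peak in MEF (28.6%, against 30.1% of all promoters) were 4 of the 5 found there. The bp covered in its spans together were nevertheless 0.623, 0.696 and 0.284 times those of ESC in MEF, brain and liver, although 4, 4 and 1 of the genes had more bp there than in ESC. Pou2f2, which encodes the B-cell factor Oct-2 (chr7:25877472-25917507, minus strand), had 66.9% of its span covered in ESC, 21.8% in MEF, 11.9% in brain, 3.75% in liver, 39.9% in shGFP and 28.3% in shSuz12. Its promoter had 1792 bp covered in ESC, 614 bp in MEF, 583 bp in shGFP and, in shSuz12, 900 bp. The promoter of Pou2af1, the coactivator, had 1185 bp in ESC, 1131 bp in MEF, 1519 bp in brain and 1054 bp in shGFP and none in liver and shSuz12.

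The span of Pou2f1, the widely expressed Oct-1, was covered at 6.90% in ESC, 8.34% in MEF, 12.7% in brain, 8.10% in liver, 5.67% in shGFP and 6.25% in shSuz12. Pou1f1, the pituitary factor Pit-1, had 12.9% in MEF and 4.40% in brain and no span peak in the other libraries. Pou6f1, a neural gene, had 33.8, 8.27, 23.5, 11.4, 16.8 and 6.49% in the 6 libraries.

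To compare each differentiated cell type with ESCs gene by gene, the bp covered in the span were set against each other, and a gene was counted as different at a fold of 2 or more with at least 500 bp in the higher library. The comparisons share the ESC library. In MEF 28 of 40 genes were lower (70.0%) and 3 higher (7.50%), against 42.6 and 19.1% of all genes. In brain 31 of 42 were lower (73.8%) and 5 higher (11.9%), against 30.6 and 21.4%. In liver 34 of 39 were lower (87.2%) and 2 higher (5.13%), against 35.5 and 26.5%. Each share of lower genes was above its background and each share of higher genes below it. Division by the total bp of each list changed the counts of lower genes to 29, 31 and 34.

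The lists have different lowest scores, and the comparison of ESC with liver, both with a lowest score of 80, is the 1 for which this does not apply. With scores of at least 80 throughout, 36 of 40 genes were lower in MEF (90.0%, background 70.8%) and 37 of 40 in brain (92.5%, background 72.6%), so that the gap to the background narrowed. Among the genes higher than ESC were Pou1f1 and Pou2af1 in MEF and in brain, Nkx6-2 in brain, and Six5 and Nkx6-2 in liver. The largest differences in the percentage covered, ESC minus brain, were those of Irx4 (71.4), Dlx3 (68.3), Nkx2-5 (64.8), Lhx3 (64.0) and Nkx2-6 (57.1).

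Of the 39 genes with a span peak in ESC, 10 (25.6%) had none in MEF, brain and liver, against 5.78% of the protein-coding genes with an ESC peak. Among them were Dlx6, Irx4, Irx6, Lhx1, Lhx5, Nkx1-2, Nkx2-5, Six2 and Six6. The background of 5.78% was not matched for length. Single peaks were compared as well. Of 247 ESC peaks in the spans, 25.9% met a MEF peak, 26.3% a brain peak and 11.3% a liver peak, whereas 48.0, 51.4 and 46.2% of ESC peaks in all gene spans did. Of the same 247 peaks 61.1% met a shGFP peak and 51.4% a shSuz12 peak, near the 56.3 and 48.3% of all spans. Of the promoters with an ESC peak, 13 of 17 had none in MEF (76.5%, background 47.6%), 13 none in brain (76.5%, background 59.3%) and 15 none in liver (88.2%, background 53.9%).

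For 11 of these genes that are known to be expressed in the adult brain (Pax6, Lhx2, Lhx6, Dlx1, Dlx2, Pou3f1, Pou3f2, Pou3f3, Nkx2-2, Nkx6-2 and Six3), 3 had a span peak in brain, 4 in liver, 2 in MEF, 5 in ESC, 7 in shGFP and 7 in shSuz12. The 27.3% with a span peak in brain (interval 6.02 to 61.0%) compare with 60.7% of all genes. These 11 are short, however, with a median span of 5869 bp. Their share was near the 34.9% of the 63 genes and the 32.7% of all genes up to 10 kb long, so that it does not set them apart. The 3 were Nkx6-2 at 57.9%, Pax6 at 7.09% and Lhx2 at 5.32% of the span. None of the 11 had a promoter peak in brain (interval 0 to 28.5%), against 20.0% of all promoters, a difference within counting error.

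**Figure D4:**
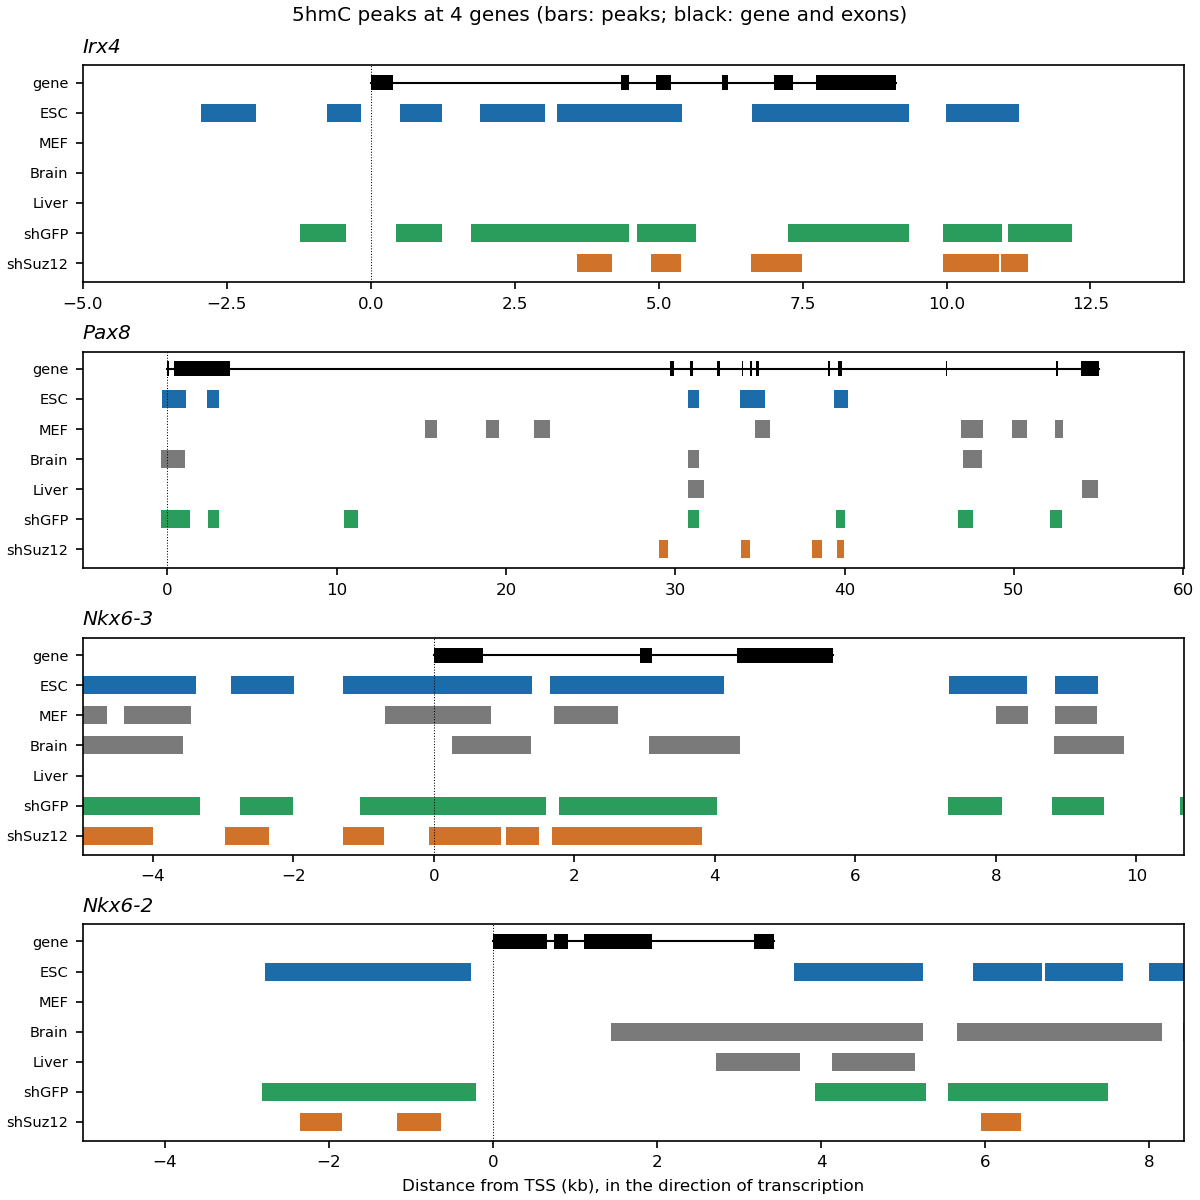
5hmC peaks (bars) in each of the 6 libraries around Irx4, Pax8, Nkx6-3 and Nkx6-2, by distance from the TSS in kb in the direction of transcription (horizontal axis), with the gene and its exons in black. At Irx4 there are peaks in ESC, shGFP and shSuz12 only, and at Pax8 the peak over the TSS is present in ESC, brain and shGFP. Nkx6-3 has peaks in every library but liver, and the span of Nkx6-2 is covered in brain and liver.

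Untransfected ESCs and shGFP cells were compared because both have intact Suz12. Here 16 of 48 genes were at least 2-fold higher in shGFP than in ESC (33.3%) and 4 lower (8.33%), whereas over all genes 5.15% were higher and 32.3% lower. The direction among the homeobox genes was thus opposite to that of the background. With scores of at least 80 in both lists, 11 of 44 were higher (25%, background 2.03%) and 8 lower (18.2%, background 62.8%).

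Of the 16 higher genes, 10 had no ESC peak within the span: Dlx1, Dlx5, Irx1, Irx2, Irx5, Nkx1-1, Nkx2-3, Nkx3-2, Pou3f1 and Pou4f2. The scores of their shGFP peaks ranged from 52.74 for Irx1 to 166.66 for Irx5, and 6 of the 10 had a peak that would have passed the ESC list's lowest score of 80. An ESC peak lay just outside some of these spans, at 64 bp for Nkx1-1, 159 bp for Dlx1 and 744 bp for Pou4f2, but 18968 bp away for Irx2. The other 6 of the 16 higher genes were Lhx5, Lhx9, Nkx2-2, Pax9, Six6 and Dlx4, and the 4 lower genes were Nkx1-2, Six5, Lhx8 and Pou6f1. At promoters, 12 of the 46 genes without an ESC peak had a peak in shGFP, against 7.96% of all such promoters, and 4 of 17 ESC promoters (23.5%, interval 6.81 to 49.9%) had none in shGFP, against 32% of all ESC promoters.

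The comparison of shSuz12 with shGFP asks how 5hmC at these genes differs when Suz12 is depleted. At least 2-fold fewer bp were covered in shSuz12 in 24 of 46 genes (52.2%) and at least 2-fold more in none, against 28 and 9.58% of all genes. By family the lower genes were 3 of 8 Pax, 5 of 8 Lhx, 4 of 7 Nkx, 3 of 5 sine oculis, 3 of 6 Irx, 3 of 5 Dlx and 3 of 7 Pou genes tested. The shSuz12 list covers fewer bp in all, 0.689 times the shGFP total, and the spans of the homeobox genes together were covered at 0.566 times and those of all genes at 0.706 times. The median log2 ratio of covered bp was -0.96 over the 40 genes with a peak in both lists and -0.50 over all such genes. Set against ESC, the other library with intact Suz12, 23 of 43 genes were at least 2-fold lower in shSuz12 (53.5%), against 60.8% of all genes. In the same comparison 6 were at least 2-fold higher (14.0%), against 4.33%. The share of lower genes thus exceeded the background against shGFP but not against ESC, and the reason was not tested.

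The lower counts depended on how the lists were made comparable. After division by the total bp, 14 of 46 genes were lower (30.4%, background 16.1%) and 1 higher (2.17%, background 15.0%). With scores of at least 80 in both lists, 36 of 43 were lower (83.7%), which is near the 82.2% of all genes. At that score the homeobox genes did not stand apart, but the cut kept 56.0% of the shGFP peaks and 17.0% of the shSuz12 peaks. With the top 50% of each list, 26 of 43 were lower (60.5%, background 40.3%) and 1 higher (2.33%, background 13.3%). Among the genes up to 10 kb long, 13 of 25 were lower (52.0%), beside 40.9% of all genes of that length, and among the longer genes 11 of 21 were lower (52.4%), beside 24.1%.

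At the promoters, 14 of the 25 with a shGFP peak had none in shSuz12 (56.0%, interval 34.9 to 75.6%), against 44.1% of all protein-coding promoters, a difference within counting error. With scores of at least 80, 13 of 20 had none (65.0%), below the background of 78.7%. Promoter bp were lower in shSuz12 in 22 genes, higher in 5 and at 0 in both in 36. The 22 are 81.5% of the genes with promoter bp in either list, beside 72.6% over all genes. The sum of promoter bp was 0.409 times that of shGFP, beside 0.540 times over all genes. Of the 17 promoters with an ESC peak, 7 had none in shSuz12 (41.2%), against 47.1% of all promoters with an ESC peak.

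The 14 were Dlx3, Dlx4, Irx1, Irx4, Lhx5, Lhx6, Lhx8, Nkx2-2, Nkx2-3, Pax8, Pax9, Pou2af1, Pou4f2 and Six4, and of these Irx4, Pax8, Pou2af1 and Pou4f2 also had a promoter peak in ESC. Peaks were present in ESC, shGFP and shSuz12 at 9 promoters, those of Dlx1, Nkx2-1, Nkx2-5, Nkx6-2, Nkx6-3, Pax5, Pax6, Pou2f2 and Pou6f1. Of the 38 promoters without a shGFP peak, 2 had a peak in shSuz12, those of Irx6 and Lhx9, against 8.57% of all such promoters. The largest falls in promoter bp were 1383 in Pax8, 1240 in Nkx2-3, 1194 in Dlx1, 1142 in Irx4, 1054 in Pou2af1, 1051 in Nkx2-5 and 968 in Lhx6. The largest rises were 507 in Six6, 494 in Irx6, 317 in Pou2f2, 125 in Pax6 and 79 in Lhx9.

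At Irx4, for which the intronic stretch is printed above, both shGFP promoter peaks (scores 72.32 and 105.27) were missing from shSuz12, and 3 weaker peaks with scores of 38.75 to 80.28 lay farther into the gene, where the shGFP peaks had 129.64 to 505.12. At Pax8 the shGFP peak over the TSS, 1732 bp wide with a score of 331.31, had no counterpart. At Six6 the peak of the printed stretch was present in both lists, with a score of 328.54 in shGFP and 100 in shSuz12, and the rise in promoter bp came with a further peak upstream and with a start of the shared peak nearer to the TSS. The rise of promoter bp in Six6 was therefore not a rise in peak score, and scores also depend on depth.

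**Figure D5:**
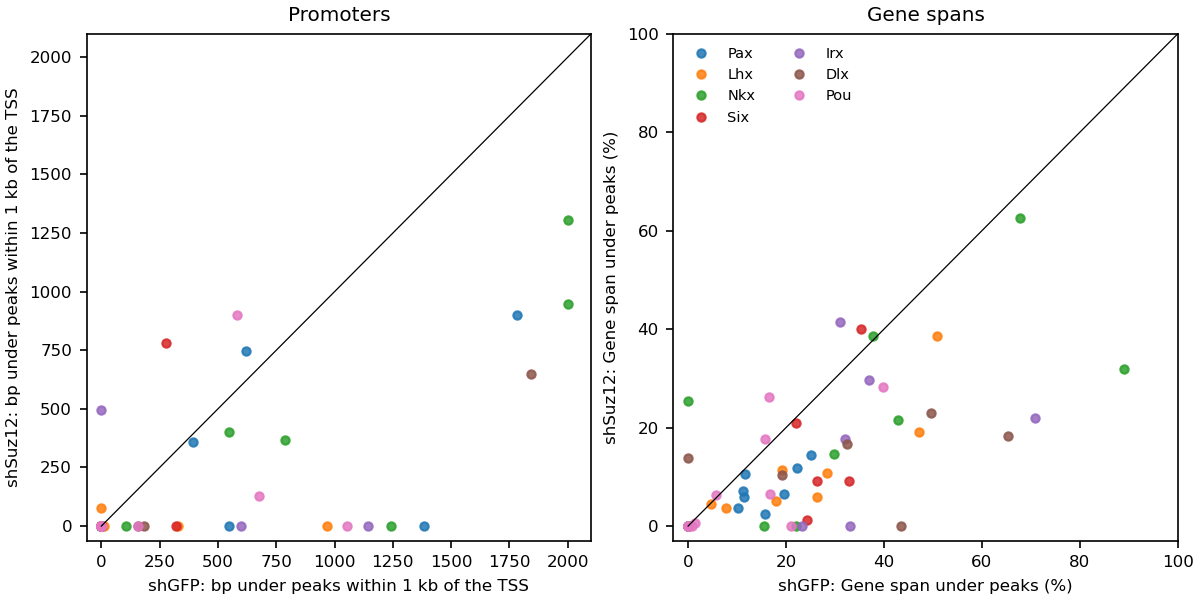
Values in shGFP (horizontal axes) against shSuz12 (vertical axes) for the 63 genes, 1 point per gene coloured by family, with the line of equal values: bp under peaks within 1 kb of the TSS (left) and percentage of the gene span under peaks (right). At promoters 22 points lie below the line, 5 above and 36 at the origin, and over the spans most points lie below it, with Irx4 at 70.7% in shGFP and 22.0% in shSuz12.

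The families named in the rule were set beside other developmental transcription factors. Promoter peaks in ESC, MEF, brain, liver, shGFP and shSuz12 were found at 50, 2.5, 0, 0, 72.5 and 35.0% of 40 Hox genes. Of 80 other homeobox genes, such as Otx, Emx, Meis and Pitx, 28.8, 6.25, 3.75, 6.25, 55 and 28.8% had one. The Hox shares were higher than those of the 63 genes in each library of ESCs and lower in MEF, brain and liver. The 42 Forkhead genes had 26.2, 14.3, 11.9, 23.8, 40.5 and 31.0% and the 38 Sox, Gata and T-box genes 47.4, 7.89, 15.8, 18.4, 50 and 36.8%. The Forkhead shares were close to those of the 63 genes in ESC, brain and shGFP, and the Sox, Gata and T-box share in MEF, while in liver both lists were above the 3.17% of the 63 genes.

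In the comparison of shSuz12 with shGFP, spans were at least 2-fold lower in 15 of 31 Hox genes, 15 of 29 Forkhead genes, 10 of 30 Sox, Gata and T-box genes and 34 of 70 other homeobox genes, beside 24 of 46 here. Higher spans in shGFP than in ESC were found in 11 of 29 Hox genes and 18 of 72 other homeobox genes, beside 16 of 48, but in 3 of 28 Forkhead genes and 3 of 29 Sox, Gata and T-box genes. None of these differences between gene lists was tested.

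Within the genes, exons of the 63 were covered 1.23 times as densely as introns in ESC and 1.84 times in shGFP, against 2.53 and 2.63 times over all genes. In MEF, brain, liver and shSuz12 the ratios were 1.06, 0.99, 1.49 and 1.74, against 1.17, 1.64, 1.84 and 2.55. Introns made up most of the covered bp in every library, with 14.3 to 23.8% of covered bp in exons.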

How the data were processed

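The authors mapped the GLIB-Seq reads to mm9 with Bowtie 0.12.7 (unique hits, redundant reads collapsed; CASAVA 1.8 is also listed in the submitters' processing notes) and called peaks with MACS 1.4.1 in each library. Neither the MACS threshold nor the control library is given in the sources used here. Scores were deposited as the authors' MACS values, in such files 10 times the negative log10 of the p-value, and served only to filter peaks. The deposited lists hold no depth. The 2 RNA-Seq libraries were not analysed here, and the mitochondrial chromosome was left out.

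Genes came from GENCODE M1 (NCBIM37, the same assembly as mm9) and sequences from that genome. Promoters are TSS ± 1 kb, and a peak was counted at an overlap of 1 bp. A promoter was HCP where a 500 bp window between 700 bp upstream and 200 bp downstream of the TSS had a CpG ratio of at least 0.75 and a GC content of at least 55%, LCP where no window reached a ratio of 0.48, and ICP otherwise. Alternatives were scores of at least 80, the top 50% of each list, equal numbers of peaks, windows of 500 bp or 2 kb, peak midpoints, bp divided by list totals, other TSS flanks and members not on chromosome 8.

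The members and lists were chosen with earlier results of these data known. Named genes are, per family, the one with most promoter bp in ESC and the largest promoter fall and rise from shGFP to shSuz12, and, over all 63, the 5 with the highest span percentage in ESC, MEF, brain and liver, the 5 with the largest ESC and brain differences in each direction, and those with no peak, except for 3 genes that are counted but not reported by name here. Other names complete a set that the text counts, and the values given for Lhx2 and Irx3 and the set lists were chosen after their values were seen. Sequences are from the 2 genes with the largest promoter fall and the 2 with no fall and most shSuz12 bp. Windows over an untranslated region were passed over, which replaced Pax8 and Dlx1 by Irx4, and for falls the peak was one without a shSuz12 counterpart. Scripts ran in Python 3.11.15 (pandas 2.3.3, numpy 2.4.6, pyfaidx 0.9.0.4, scipy 1.17.1, matplotlib 3.10.9) and were tested on simulated peaks.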

Additional observations from a re-analysis of the deposited data

How the results depend on the processing

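No paired analysis was possible because there is 1 library per group. Of 111 values under an alternative, 85 stayed within their counting or count limits, 26 moved and none was counted as reversed. The TSS ratio of shSuz12 nevertheless went from below 1 to above it, and the cause was not tested. Some differences from the background changed sign. With scores of at least 80, the share of shGFP promoters without a shSuz12 peak went from 56.0% (background 44.1%) to 65.0% (background 78.7%). The shSuz12 promoter share went from just below its background to above it. With the top 50% of peaks, the ESC median span coverage went from above its background to below it (0 against 2.61%). The ESC and shGFP span alternatives were chosen after seeing the data. With scores of at least 80, promoter shares were 1.59% in brain (all genes 5.45%) and 11.1% in shSuz12 (all genes 5.07%), median span coverage 13.7% in shGFP and 0% in shSuz12, the TSS stood at 28 times its flanks in MEF and 1.58 times in shSuz12, ratios of very few peaks, 1 gene was higher in brain than in ESC, and 8 were lower in shGFP than in ESC. With the top 50% of peaks, median span coverage was 0% in ESC, 10.4% in shGFP and 1.67% in shSuz12, and 5 and 4 genes were higher in MEF and liver. With equal numbers of peaks it was 6.18% in ESC and 5.93% in shSuz12. Promoters of 500 bp on each side gave 25.4% in shGFP and 11.1% in shSuz12, promoters of 2 kb gave 44.4, 61.9 and 46.0% in ESC, shGFP and shSuz12, and peak midpoints gave 23.8% in shGFP. Without chromosome 8 median coverage was 9.40, 17.4 and 5.94% in ESC, shGFP and shSuz12. Division by list totals left 14 genes lower in shSuz12 and 2 lower in shGFP than in ESC. Unknown depth limits every comparison between lists, and unequal lowest scores limit all those made here except ESC with liver.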

Other observations

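Where homeobox genes lie side by side, the DNA between them was also read, within gaps of 250 kb. From Six3 to Six2, over 74.647 kb of chromosome 17, peaks covered 15.6% in ESC, 2.78% in MEF, 2.23% in brain, 0% in liver, 14.8% in shGFP and 7.74% in shSuz12, in 13, 3, 2, 0, 11 and 11 peaks. From Nkx2-1 through Nkx2-9 to Pax9, a group of lung, thyroid and skeletal regulators, they covered 3.16% in ESC, 5.00% in MEF, 3.98% in shGFP and 2.07% in shSuz12 and nothing in brain and liver. From Dlx6 to Dlx5 peaks covered 6.04% in ESC, 16.7% in shGFP and 8.18% in shSuz12 and nothing in MEF, brain and liver.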
